A study of Mus musculus with 8 samples.

Results

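The hypoxia response was followed through 10 of its genes in hearts of C57BL/6 mouse embryos at embryonic day 9.5. They are 3 subunits of the hypoxia-inducible factors (Hif1a, Epas1 and Arnt), 3 genes that keep those factors in check (Vhl, Egln1 and Egln3) and 4 target genes (Bnip3, Ankrd37, Adm and Ddit4). The genes were taken by name from the count table, and all 10 were found among its 49315 genes. The study sequenced RNA of hearts from 4 female and 4 male embryos or pools, sexed from tissue other than the heart. The labels name no mutation and no treatment for any library. Whether a library is 1 heart or several, and whether litters were shared, is not labelled. The p-values therefore speak for these libraries, whose spread may in part be technical.

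A hypoxia-inducible factor is a dimer of an oxygen-labile alpha subunit and the stable partner Arnt. With oxygen present, prolyl hydroxylases such as Egln1 and Egln3 mark the alpha subunit, Vhl binds the marked protein, and the ubiquitin ligase that contains Vhl sends it to the proteasome. When oxygen is low the dimer accumulates and binds short motifs in its target genes, among them Egln1 and Egln3 themselves. The embryo depends on this pathway, since mice without Hif1a or Arnt die in mid-gestation. Control of the alpha subunits acts largely on the protein, which was not measured here.

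The letters that the factors recognise, ACGTG or GCGTG, were searched on both strands from 250 bases before to 50 bases after the start of each gene in RefSeq on GRCm38.p6. A window was found for 9 of the 10 genes, all but Epas1. The motif was in 8 of those 9 windows (88.9%), against 66% of the 11517 tested genes with a window. The ACGTG form alone was in 6 of 9 (66.7%), against 28.5% of the tested genes. Both forms contain CG, of which the windows of the 9 genes held 9 (Adm) to 60 (Egln1). The shares over tested genes were not matched for this. These are matches of letters and were not tested as binding sites. The stretches that follow are a selection. They hold all matches of Bnip3, Adm, Ddit4 and Egln3, and 1 ACGTG each of Egln1 and Ankrd37, so that targets whose levels correlated with each other can be set beside Ankrd37, whose levels did not follow theirs. Each is written on the strand of its gene with the matches in capitals, and a match to the opposite strand reads CACGT or CACGC.

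Bnip3, chr7:138909525-138909635, minus strand: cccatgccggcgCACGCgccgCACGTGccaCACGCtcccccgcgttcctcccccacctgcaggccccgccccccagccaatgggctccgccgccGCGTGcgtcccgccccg
Adm, chr7:110627555-110627619, plus strand: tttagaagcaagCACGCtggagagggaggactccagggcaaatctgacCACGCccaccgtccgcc
Ddit4, chr10:59951869-59951969, minus strand: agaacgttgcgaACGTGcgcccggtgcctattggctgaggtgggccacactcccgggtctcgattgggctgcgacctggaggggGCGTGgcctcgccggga
Egln1, chr8:124949306-124949334, minus strand: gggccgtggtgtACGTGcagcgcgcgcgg
Egln3, chr12:54204087-54204115, minus strand: tgtgcatctcagACGTGagatccaggttt
Ankrd37, chr8:46000075-46000100, minus strand: cccagcagtACGTGcctagctcggct

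Bnip3 had the most matches of the 9 genes, with 5, of which the ACGTG on each strand share 4 letters in CACGTG. Ankrd37 had 4, Hif1a 3, Egln1, Adm and Ddit4 2 each, Arnt and Egln3 1 each, and Vhl 0 in this window. The window of Hif1a (chr12:73907617-73907916) lies inside its gene model, which begins at 73901375. The bases checked after its start were in none of the Hif1a transcripts searched, unlike those of the other windows. Its matches are counted in the shares above all the same. The window of Ankrd37 (chr8:45999801-46000100) also lies inside its gene model, which begins at 46005707 on the minus strand. The ACGTG of Egln1 shown above (124949318 to 124949322) lies just inside its model, which begins at 124949324 on the minus strand. The stretches shown for these genes are therefore not all sequence outside the gene.

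Libraries held 20105913 to 51134291 counts. Myocardial genes were abundant in all 8, with Nkx2-5, the least abundant of the 7 myocardial markers by lowest value, at 409 CPM (counts scaled to a common library size) or more. Male replicate 2 stood apart before any gene of the group was considered. It lay at -59.5 on the first principal component, against -15 to 35 for the other 7, and 31.3% of its genes were more than 0.5 log2 from the mean of the others, against 2.44% to 11.6% elsewhere. It had the lowest mitochondrial share of counts, 0.707% against up to 1.72%, and its shortest genes (56 to 1334 bases) lay 0.36 log2 above the other libraries in the median. Its 7 myocardial markers summed to 52300 CPM, the highest of all, against 31400 to 41500 CPM elsewhere. Foregut epithelium genes summed to 63.2 CPM in Female replicate 1 and 39.3 CPM in Male replicate 2, against 5.3 to 22.8 CPM elsewhere, with Shh at 0 in at least 1 library. Several results that rest on Male replicate 2 are given with and without it, but the genes most like each member are given over all 8 libraries only. The part of these features in those results was not tested.

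**Figure D1:**
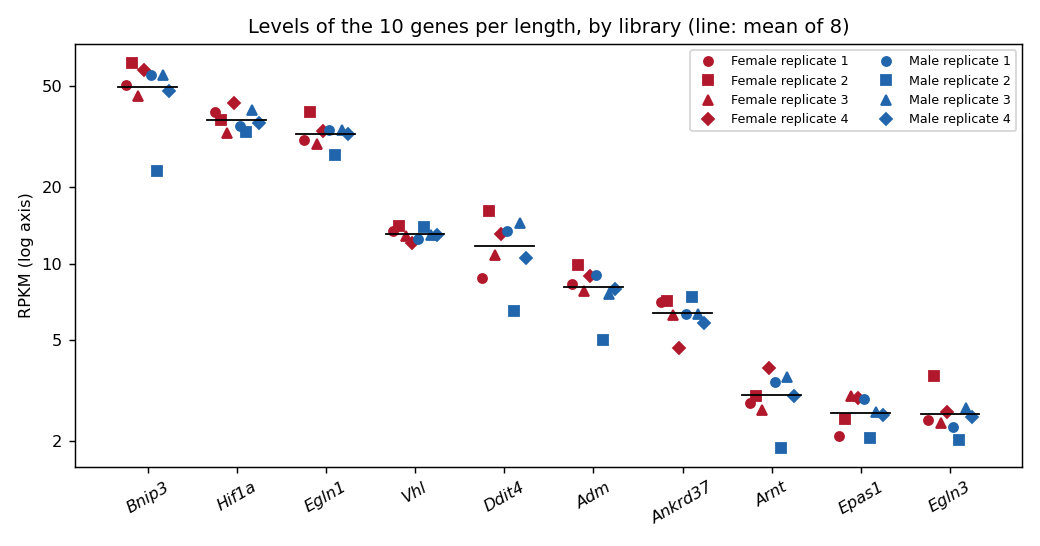
Length-scaled levels (RPKM, log axis) of the 10 genes in each library, ordered by mean, with female libraries in red and male in blue and the mean of 8 as a line. Bnip3, Hif1a and Egln1 form the upper tier, and Male replicate 2 is the lowest point for 7 of the 10 genes.

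Per length, the embryonic heart held far more Hif1a than Epas1 or Arnt RNA. Levels between genes are compared as RPKM, which is CPM divided by the length of the gene model in kilobases (mean ± SD, n = 8). Bnip3 was highest at 49.7 ± 12 RPKM, followed by Hif1a at 37 ± 3.7, Egln1 at 32.5 ± 3.85 and Vhl at 13.1 ± 0.679. Ddit4 stood at 11.7 ± 3.15 RPKM, Adm at 8.06 ± 1.44, Ankrd37 at 6.37 ± 0.882, Arnt at 3.03 ± 0.614, Epas1 at 2.58 ± 0.375 and Egln3 at 2.55 ± 0.466. Neighbours in this order overlapped over the libraries, except that Egln1 lay above Vhl and Ankrd37 above Arnt in 8 of 8 libraries with ranges apart. Bnip3 exceeded 92.8% of the 16377 tested genes in mean RPKM and Hif1a 90.5%, while Arnt, Epas1 and Egln3 lay below the median gene, above 47%, 43.9% and 43.7% of genes.

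Hif1a, the broadly expressed alpha subunit (chromosome 12, 73901375 to 73947530), stood at 234, 216, 193 and 253 CPM in Female replicates 1 to 4 and 206, 195, 238 and 210 CPM in Male replicates 1 to 4. Its highest and lowest libraries were both female, 1.32-fold apart. Epas1 (chromosome 17, 86753907 to 86833410), the alpha subunit known from endothelium, had 11.2, 12.9, 16 and 15.7 CPM in females and 15.6, 10.9, 13.9 and 13.5 CPM in males. Both sexes spanned nearly the same range. The RPKM ratio of Hif1a to Epas1 averaged 14.6 ± 2.49 (SD, n = 8) and ran from 10.8 in Female replicate 3 to 18.9 in Female replicate 1. In bulk hearts fewer cells of a type and less RNA per cell cannot be told apart, so this ratio is one of whole hearts.

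Arnt, the shared beta subunit (chromosome 3, 95434388 to 95497240), had 22.5, 24.2, 21.3 and 31 CPM in females and 27.2, 15.1, 28.6 and 24 CPM in males. Male replicate 2 was the lowest and Female replicate 4 the highest, 2.06-fold apart. Hif1a exceeded Arnt 12.6 ± 2.3-fold in RPKM (SD, n = 8), from 10.3 in Male replicate 1 to 17.5 in Male replicate 2. Over the 8 libraries the log2 level of Arnt rose with the mitochondrial share of counts (r = 0.961, adjusted p = 0.00223 over 30 relations, rho = 0.976 with p = 0.000397, exact permutation tests). The same held for the normalization factor of each library (r = 0.975, adjusted p = 0.00484, exact permutation test). Male replicate 2 was lowest in Arnt, in mitochondrial share (0.707%) and in that factor (0.8637), and neither r was computed without it. By value, Bnip3 had r of 0.789 and 0.9 with the same measures, while Vhl and Ankrd37 fell with both. Ddit4 had a higher r than Bnip3 with the mitochondrial share and a lower one with the factor. No relation of a gene other than Arnt passed over the 30, the lowest adjusted p being 0.08 (exact permutation tests).

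Vhl, the substrate receptor of the ligase (chromosome 6, 113623959 to 113631633), was the steadiest of the 10. It had 40.4, 42.2, 38.4 and 36.4 CPM in females and 37.6, 41.9, 39.1 and 39 CPM in males. The libraries differed by no more than 1.16-fold, and the coefficient of variation of 5.17% was smaller than that of 94% of the genes within 2-fold of its level. Egln1, the main oxygen-sensing hydroxylase (chromosome 8, 124908587 to 124949324), had 110, 143, 106 and 120 CPM in females and 121, 96, 121 and 117 CPM in males. Female replicate 2 was its highest library and Male replicate 2 its lowest. Egln3, a hydroxylase that hypoxia induces strongly in many cells (chromosome 12, 54178981 to 54203860), had 6.41, 9.55, 6.28 and 6.91 CPM in females and 6.05, 5.36, 7.16 and 6.64 CPM in males. Female replicate 2 stood clear of the other 7 libraries. Egln1 exceeded Egln3 12.8 ± 1.03-fold in RPKM (SD, n = 8), between 11.1 in Female replicate 2 and 14.8 in Male replicate 1.

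Bnip3, a mitochondrial receptor for mitophagy (chromosome 7, 138890836 to 138909519), had 114, 140, 104 and 131 CPM in females. Its male values were 125, 52.3, 125 and 109 CPM. Male replicate 2 held less than any other library by a wide margin, and the 7 others lay within 104 to 140 CPM. Ddit4, an inhibitor of mTORC1 signalling (chromosome 10, 59949675 to 59951770), had 14.8, 27.2, 18.2 and 22.1 CPM in females and 22.5, 11, 24.3 and 17.7 CPM in males. It varied most of the 10, with a coefficient of variation of 26.9% against 24% for Bnip3 and a median of 16.4% over all genes tested. Of the genes within 2-fold of its level 7.72% varied more than Ddit4, and 11.2% of those near Bnip3 varied more than Bnip3.

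Adm encodes the vasodilator peptide adrenomedullin (chromosome 7, 110627661 to 110629820). Its levels were 13.4, 16, 12.6 and 14.4 CPM in females and 14.6, 8.13, 12.3 and 12.9 CPM in males, with the same highest and lowest libraries as Bnip3 and Ddit4. Ankrd37, an ankyrin-repeat protein known as a hypoxia-induced transcript (chromosome 8, 45996902 to 46005707), had 10.9, 10.9, 9.68 and 7.13 CPM in females and 9.72, 11.4, 9.77 and 8.94 CPM in males. Its order differed from that of the other targets: Male replicate 2 was highest and Female replicate 4 lowest. The gene model of Ankrd37 overlaps those of Ufsp2 and Lrp2bp on the opposite strand. These had 7437 and 166 counts in all against 2697 for Ankrd37, and without a stated strand setting reads of the overlaps cannot be told apart. The span shared with Ufsp2 is short, from 45996902 to 45996958, and that shared with Lrp2bp runs from 45999303 to 46005707. At these levels counting error alone gave a coefficient of variation of 1.2% for Hif1a to 6.87% for Egln3, below the spread seen for every gene of the group.

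None of the 10 genes passed the test between male and female hearts, and the values of the sexes overlapped for each. The share of all genes with such an overlap was not computed. Over all genes, 6 of 16377 passed an adjusted p of 0.05 in edgeR, or 0.0366%, and the share was 0.0508% in DESeq2 and 0.0427% in limma-voom. At an unadjusted p below 0.05 the test took 0 of the 10 and 367 of all genes (2.24%), and DESeq2 and limma-voom also called 0 of the 10. The value in males was lower for 8 genes and higher for 2, with a median log2 fold change of -0.08 against 0.01 over all genes tested. Of all 16377 genes, 7711 were lower and 8666 higher by value in males.

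The intervals show what these libraries leave possible. Vhl was the most tightly bounded, with a log2 fold change, male minus female, of 0.0025 ± 0.079 (SE) and a 95% interval of 0.885-fold to 1.13-fold. Hif1a differed by -0.08 ± 0.11, an interval of 0.798-fold to 1.12-fold. Epas1 (-0.05 ± 0.15), Arnt (-0.07 ± 0.20), Egln1 (-0.08 ± 0.12) and Ankrd37 (0.05 ± 0.15) had intervals that lay within 0.698-fold to 1.31-fold. The 4 with the lowest estimates were Bnip3 (-0.25 ± 0.25), Adm (-0.24 ± 0.17), Egln3 (-0.22 ± 0.17) and Ddit4 (-0.13 ± 0.26), and for Bnip3 the interval ran from 0.571-fold to 1.24-fold. Each adjusted p was 0.9995 (edgeR). Without Male replicate 2 the log2 estimates were -0.03 for Bnip3, -0.10 for Adm, 0.05 for Ddit4 and 0.10 for Arnt. For Egln3 the estimate was -0.15 without Male replicate 2 and -0.06 without Female replicate 2.

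**Figure D2:**
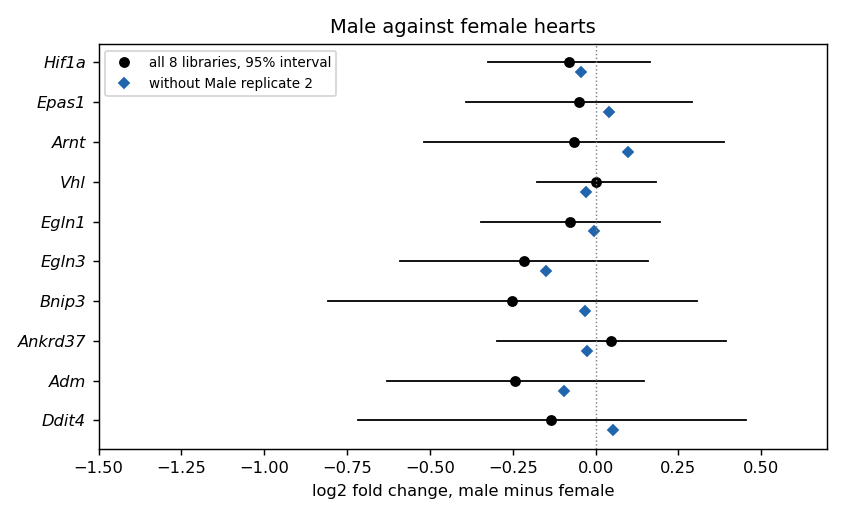
Log2 fold change of each gene, male minus female, with its 95% interval over all 8 libraries (black) and the estimate without Male replicate 2 (blue). All 10 intervals include 0, and the estimate of Bnip3 moved from -0.25 to -0.03 without that library.

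Several of the genes were correlated over the hearts. Over the 8 libraries, 30 of the 45 pairs of genes had a positive Pearson correlation of log2(CPM + 0.5), with a median r of 0.44. Of the 45 pairs, 5 passed an exact permutation test after adjustment over the 45. With rho in place of r, 0 passed, while 15 pairs by r and 11 by rho had an unadjusted p below 0.05. Leaving out Male replicate 2, 0 of 45 passed the same test, and the same was true without Female replicate 1, Female replicate 4 or Male replicate 4. Without Male replicate 1 there was 1, without Male replicate 3 there were 2.

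Bnip3 and Adm had the highest correlation (r = 0.958, p = 0.00305, adjusted p = 0.0343, rho = 0.833 with p = 0.0154, exact permutation tests). Without Male replicate 2 it was 0.75, and without the 2 libraries farthest from the median of Bnip3, which were Female replicate 2 and Male replicate 2, it was 0.562. Bnip3 and Ddit4 followed each other at r = 0.882 (p = 0.00198, adjusted p = 0.0343, rho = 0.81 with p = 0.0218, exact permutation tests). Here the value was 0.811 without Male replicate 2 and 0.705 without both libraries. The mitophagy receptor, the vasodilator peptide and the mTORC1 inhibitor were all highest in Female replicate 2 and all lowest in Male replicate 2, and r was lower without these libraries.

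Egln1 and Ddit4 correlated at r = 0.904 (p = 0.00253, adjusted p = 0.0343, rho = 0.905 with p = 0.00456, exact permutation tests), and at 0.763 without the same 2 libraries. The 2 hydroxylases, Egln1 and Egln3, correlated at r = 0.903 (p = 0.00523, adjusted p = 0.0471, rho = 0.643 with p = 0.0962, exact permutation tests). This pair rests on 2 libraries: r was 0.866 without Male replicate 2 and 0.412 without both libraries. Vhl and Ankrd37 were the fifth pair (r = 0.865, p = 0.00231, adjusted p = 0.0343, rho = 0.881 with p = 0.00724, exact permutation tests). It was 0.835 without Female replicate 2 and Male replicate 2, but 0.375 when libraries were scaled by total count alone. By total count, 20 of the 45 pairs passed. High correlations were common among all genes, as a description: 8.51% of 16376 genes had an r with Bnip3 at least as high as that of Ddit4, 1.03% as high as that of Adm, and 6.84% as high as that of Arnt. For Egln1 the shares were 0.0916% at the r of Ddit4 and 0.0977% at that of Egln3, and for Vhl 0.495% at the r of Ankrd37.

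**Figure D3:**
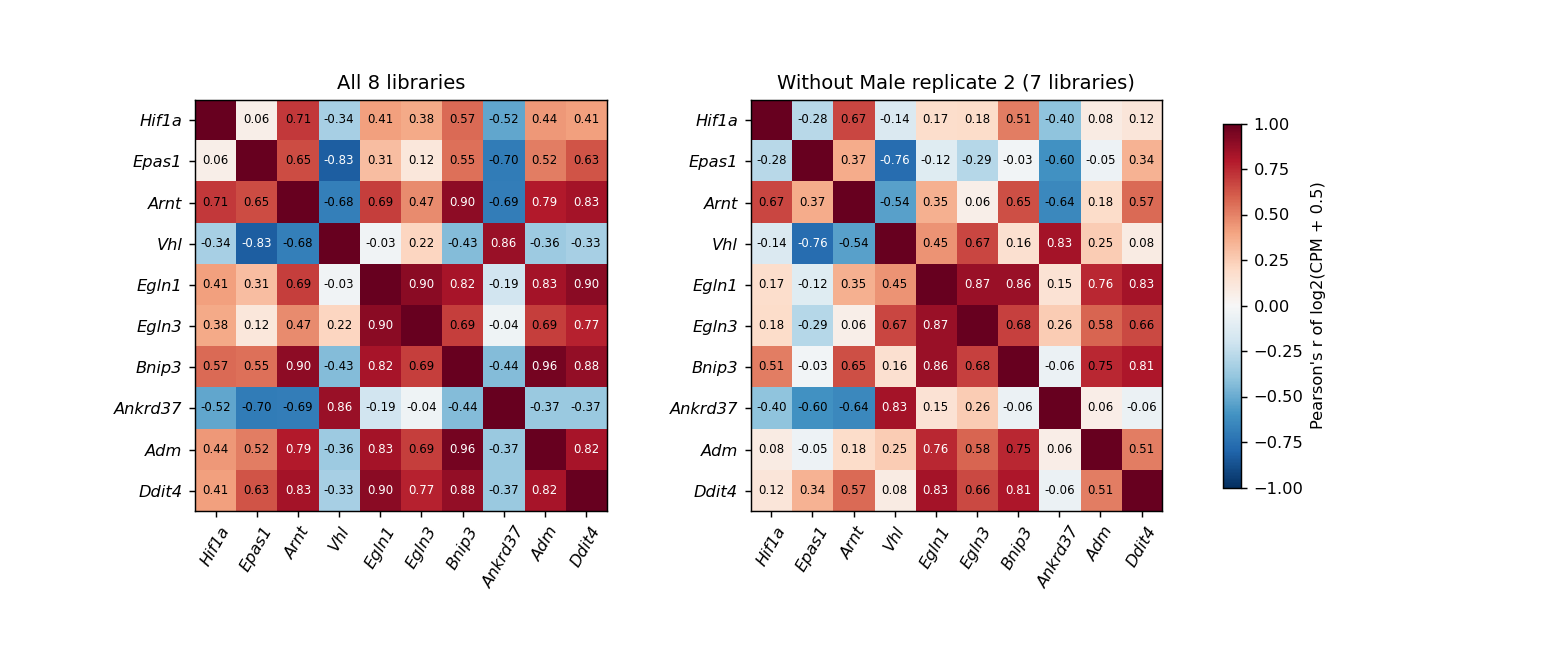
Pearson correlations of log2(CPM + 0.5) between the 10 genes over all 8 libraries (left) and without Male replicate 2 (right), red for positive and blue for negative. Egln1, Egln3, Bnip3, Adm and Ddit4 stay positive with each other in both panels, while the row of Epas1 loses most of its positive values on the right.

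The pairs were also grouped by role. Egln1 and Egln3 are counted here with the targets, as genes that the factors induce. Of the 15 pairs among the 6 targets, 10 were positive with a median r of 0.77, and 13 with a median of 0.66 without Male replicate 2. All 5 negative pairs held Ankrd37. Of the 18 pairs of a factor and a target 15 were positive, with a median of 0.45, and none passed over the 45. Without Male replicate 2 this became 11 positive with a median of 0.10. Without Female replicate 2 and Male replicate 2 the medians lay close, at 0.38 for pairs of targets (9 of 15 positive) and 0.33 for pairs of a factor and a target (14 of 18 positive). The difference between these sets of pairs was not tested.

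Among the factors, Arnt had the highest correlations with targets. Its r was 0.898 with Bnip3 (adjusted p = 0.054, rho = 0.81 with p = 0.0218, exact permutation tests), 0.832 with Ddit4 and 0.79 with Adm. Without Male replicate 2 these were 0.645, 0.566 and 0.184, and without Female replicate 2 as well 0.938, 0.818 and 0.436. Hif1a had r between 0.378 and 0.57 with Egln1, Egln3, Bnip3, Adm and Ddit4, and -0.52 with Ankrd37. Without Male replicate 2 its r was 0.514 with Bnip3 and 0.0817 to 0.183 with the other 4, and -0.402 with Ankrd37. Epas1 was positive with 5 of the 6 targets over 8 libraries and with 1 of 6, Ddit4 at 0.344, without Male replicate 2. For the 2 alpha subunits r was 0.0619 (rho = 0, exact permutation p = 0.884 for r), but -0.279 without Male replicate 2, -0.426 without the 2 libraries farthest from the median of Hif1a, and 0.532 by total count.

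Female replicate 2 and Male replicate 2 carried the extremes of the group, and both were picked out after their values were seen, so what follows is a description without a test. In Female replicate 2 Ddit4 lay 0.58 log2 above the mean of the other 7 libraries, higher than 99.9% of all genes tested did. Egln3 lay 0.55 above (99.8%), Bnip3 0.41 (99.5%), Egln1 0.35 (98.9%) and Adm 0.35 (99%). The factors did not share this: Hif1a was at -0.01, Epas1 at -0.08 and Arnt at 0.03. With Vhl, 6 of the 10 genes had their highest level in this library, against 4.61% of all genes, and 7 of 10 once Male replicate 2 was left out (all genes 7.34%). By total count it was 5 of 10.

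Female replicate 2 was otherwise close to the rest. Its genes deviated least of all libraries, with 2.44% more than 0.5 log2 from the mean of the others. Its foregut genes summed to 7.51 CPM and its hepatic and yolk sac genes to 0.927 CPM, within the range of the other libraries, with Alb, Apoa4 and Fgb at 0 in at least 1 library. Its erythroid genes summed to 4310 CPM, the lowest of the 8, of which the highest was 11300 CPM. The immediate early and stress genes summed to 204 CPM against 182 to 245 in the other libraries. The part of these features in the target levels was not tested.

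**Figure D4:**
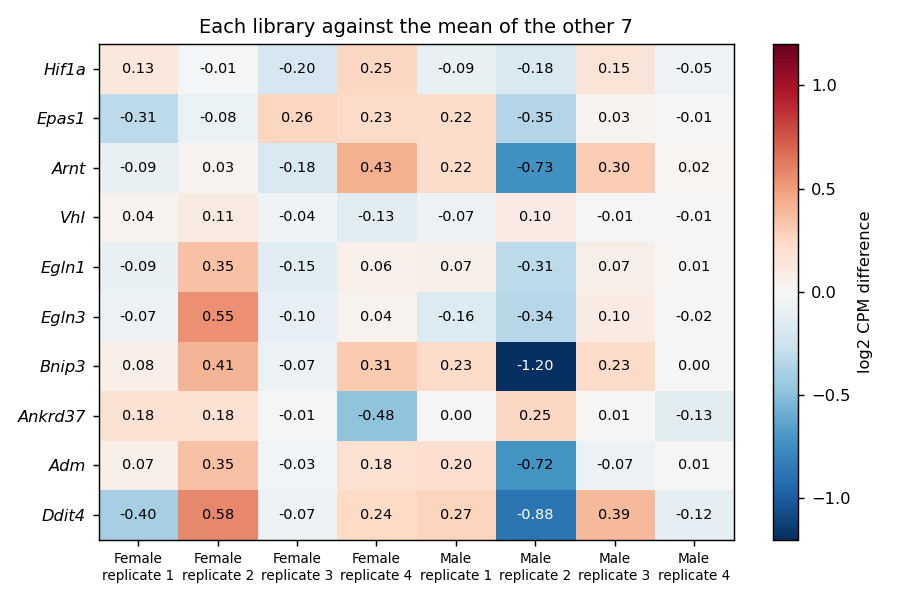
Log2 difference of each library from the mean of the other 7, for the 10 genes (red above, blue below). The column of Female replicate 2 is above 0 for 8 genes with Ddit4 at 0.58, and the column of Male replicate 2 is below 0 for 8 genes with Bnip3 at -1.20.

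Other target genes of the factors also stood high in Female replicate 2. Their lists were chosen with earlier results of these data known, so the shares are a description too. Of 52 tested genes on 2 lists of known targets, 45 (86.5%) lay above the mean of the other 7 libraries there, against 52.2% of all genes. In the other libraries the share ran from 32.7% in Female replicate 1 to 59.6% in Male replicate 1. The count was 45 again without Male replicate 2, 43 by total count and 41 with both changes. By total count without Male replicate 2, Male replicate 1 reached 80.8%, but there 60.2% of all genes lay above as well, against 36.1% in Female replicate 2.

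The glucose genes gave 19 of 21 above the mean and the targets of other roles 26 of 31. Stc2, a secreted glycoprotein, lay 0.60 log2 higher, with 7.98 CPM against 3.29 to 6.12 in the other libraries. P4ha2, a collagen prolyl hydroxylase, lay 0.43 higher, with 54.3 CPM against 32.3 to 46.5. The glycolytic enzymes Aldoc (0.42) and Pgk1 (0.29), the pyruvate dehydrogenase kinase Pdk1 (0.29) and the glucose transporters Slc2a3 (0.33) and Slc2a1 (0.19) were also higher. Vegfa, the angiogenic growth factor, was not, at 0.03, and the lysyl oxidase Lox was lower by value, at -0.56 with less than 1 CPM on average. These 9 genes were chosen after their values were seen.

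**Figure D5:**
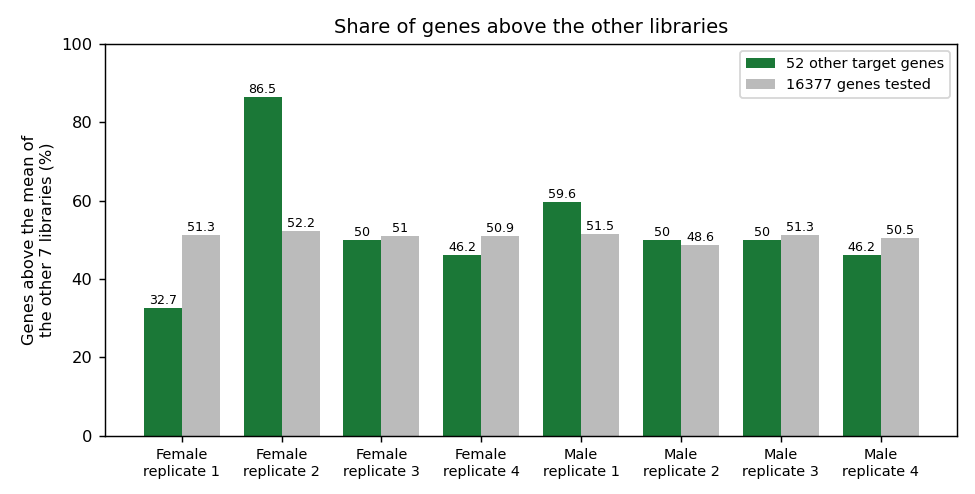
Share of genes above the mean of the other 7 libraries (percent) in each library, for 52 other target genes (green) and all 16377 genes tested (grey). Female replicate 2 reaches 86.5% for the targets against 52.2% for all genes, and no other library exceeds 59.6%.

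In Male replicate 2 the group was mostly low. Bnip3 was 1.20 log2 below the mean of the others (ratio 0.436), a position lower than all but 0.843% of genes, and 0.928% among genes of like length. Ddit4 was at -0.88, Arnt at -0.73, Adm at -0.72, Epas1 at -0.35, Egln3 at -0.34 and Egln1 at -0.31, while Vhl (0.10) and Ankrd37 (0.25) were above the mean. For 7 of the 10 this was the lowest library, against 33.4% of all genes, and by total count for 9 of 10 against 49.8%. The 52 other targets went both ways: 21 had their lowest level there (40.4%) and 17 their highest (32.7%, all genes 31.9%). Pgam1 (-1.47), Pgk1 (-0.80) and Kdm3a (-0.74) were low, and Stc1 (1.08), Flt1 (0.91) and Hk2 (0.87) were high. Those 6 were named after their values were seen.

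The rest of the pathway gave the same picture between the sexes, with 0 genes called in each list (edgeR, adjusted p of 0.9995 as the lowest). Of 6 tested subunits and partners, 3 had higher and 3 lower values in males, and Sim1 was too low to test. Hif3a, an alpha subunit with short isoforms, had 1.78 ± 0.3 RPKM (SD, n = 8), and the related Ahr 0.614 ± 0.0665. Of 11 genes of oxygen sensing and degradation 5 were higher and 6 lower by value, led in level by the ligase subunits Elob (660 ± 227 RPKM) and Rbx1 (129 ± 16.1). Os9, a lectin of protein quality control, was the member with an unadjusted p below 0.05 (edgeR), at a log2 fold change of 0.27 ± 0.12 (SE), and was named for that. Its adjusted p was 0.9995. Of 8 coactivators and modulators, 5 were higher and 3 lower, with the chaperones Hsp90ab1 (1170 ± 29.7 RPKM) and Hsp90aa1 (375 ± 129 RPKM) at the top.

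Glucose genes were abundant, with a median of 150 RPKM over the list against 3.5 over all genes tested. Of 21 tested, 14 had higher and 7 lower values in males. Gapdh of the glycolytic pathway averaged 1320 ± 126 RPKM and Ldha, the enzyme that makes lactate, 966 ± 78.7 (SD, n = 8). Of 31 tested targets with other roles, 15 were higher and 16 lower, and Epo was too low to test. Fam162a, a mitochondrial protein of hypoxic cell death, had 371 ± 44.3 RPKM, the second of that list after the cytokine Mif at 2260 ± 438 RPKM.

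By the pattern over the 8 libraries alone, the genes most like each member were listed as a description. Of the 3 nearest genes to Egln1, 2 were targets on the lists, Stc2 (r = 0.945) and P4ha1 (r = 0.94), after Alg11 (r = 0.953). Ranked among 16376 genes by likeness to Egln3, Egln1 was number 6, and in the other direction Egln3 was number 16. Bnip3 was number 12 by likeness to Adm, and Adm number 169 by likeness to Bnip3. Ddit4 was number 15 by likeness to Egln1, and Egln1 number 195 by likeness to Ddit4. Between Bnip3 and Ddit4 the ranks were 1393 for Ddit4 and 442 for Bnip3. The genes nearest to Bnip3 were Tdp1 (r = 0.996), Pcbp1 and Lancl1, nearest to Ddit4 Fstl3 (r = 0.988), Det1 and Zswim5, and nearest to Adm Hps6 (r = 0.982), Fam69a and B3galnt1. For Egln3 they were Ccdc130 (r = 0.965), H2-M3 and Peli2, and for Ankrd37 Nudt2 (r = 0.934), H2-Eb1 and Aven. Vhl was closest to Med21 (r = 0.973), Nudt2 and Ccdc58. Hif1a was closest to Kpna4 (r = 0.983), Fndc3a and Zfp800, Epas1 to Stard8 (r = 0.977), Rgs8 and Ptpn6, and Arnt to Map3k7 (r = 0.996) and Cdk8.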

How the data were processed

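RNA of embryonic day 9.5 hearts was sequenced with an Illumina TruSeq RNA kit, per the labels' protocols. The authors deposited whole-number counts per gene, not normalized, and a table of normalized signal (counts over 1 factor per library, 16460 genes), used only as an alternative. The submitters' processing notes name GRCm38 (mm10), featureCounts from Subread 1.5.2, STAR 2.5.2b and Trimmomatic 0.36. Strand setting, annotation release and the handling of multi-mapping reads were not given in the sources used here. Replicates differed by more than sampling noise (chi-square per gene 7.93 to 192).

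Counts were tested with edgeR 4.0.16 (filterByExpr with a minimum count of 10, TMM, robust quasi-likelihood, 2-sided, Benjamini-Hochberg over 16377 genes); the fit was tested on simulated data. CPM and RPKM use TMM-scaled library sizes, and RPKM the deposited gene length. Correlations used exact 2-sided permutation over all orderings of the libraries used, 40320 for 8 libraries, in numpy 2.4.6. Ranks for rho came from scipy 1.17.1. Alternatives were DESeq2 1.42.0, limma-voom (limma 3.58.1), other scalings and filters, a replicate block and leaving out libraries. Members and lists were chosen with earlier results of these data known. Named genes were the 10 members, of each list its called genes and the 2 highest in RPKM, and the 3 genes most like each member by r, of which 1 is not reported here; others are marked.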

Additional observations from a re-analysis of the deposited data

Results flagged for a closer look

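The level of Egln1 in Male replicate 2 (96 CPM) stood apart from the other 3 male libraries (117 to 121 CPM). Its gap to the nearest was 0.832 of the range of the 4 males, just past Dixon's critical value for 4 samples. It was 1 of 20 groups looked at (10 genes in 2 sexes), and chance marks about 1 in 20.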

How the results depend on the processing

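No gene of the group passed under any of 18 alternatives of the sex contrast, in which 5 to 9 genes of all tested were called against 6. Of 180 fold changes 17, in 6 genes, had the opposite sign. By leaving out 1 library, Epas1 ranged from -0.14 to 0.0404, Arnt from -0.166 to 0.0979, Vhl from -0.0328 to 0.0381, Egln1 from -0.129 to 0.0216, Ankrd37 from -0.0749 to 0.116, and Ddit4 from -0.276 to 0.0533 on the log2 scale. Without a change of sign, Egln3 ranged from -0.282 to -0.0558, Bnip3 from -0.359 to -0.0333, Adm from -0.349 to -0.0953 and Hif1a from -0.146 to -0.0154. Without Female replicate 1 and Male replicate 2 together Arnt was at 0.0491 and Vhl at -0.0192. Vhl was at -0.0315 by library size alone and -0.0205 with no filter. The count of gene pairs passing moved from 5 to 20 by total count, 10 with each sex centred, and 0 by rho, without the 2 farthest libraries, without Female replicate 1 and Male replicate 2, and without Female replicate 2 and Male replicate 2. It ran from 0 to 5 when 1 library was left out. With 6 libraries few orderings are left, so a loss there says little. Of 80 values of the 5 passing correlations, 24 passed, 56 did not and 0 changed sign. The cause was not tested. Other targets highest in Female replicate 2 went from 14 of 52 to 27 without Male replicate 2 and 22 by total count as well; these alternatives were chosen after seeing the data. The order of RPKM levels was the same by total count and in TPM, with 8 of 10 places or more when 1 library was left out. No label says that the male and female numbers pair the hearts, so the replicate block is given only here: it called 5 genes and 0 of the 10. The correlation of same-numbered deviations was -0.469 to 0.0932, and that of unlike-numbered ones -0.794 to 0.753. With so wide a range, these values cannot show whether same-numbered hearts shared a litter.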

Other observations

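The RNA levels of Epas1 and Vhl moved in opposite directions over the libraries (r = -0.826, adjusted p = 0.0639, rho = -0.833 with p = 0.0154, exact permutation tests). Vhl acts on the alpha subunit as a protein, and protein was not measured here. The pair did not pass over the 45. It was -0.758 without Male replicate 2 and 0.208 when libraries were scaled by total count, so its sign depends on the scaling. It was chosen after its value was seen.

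Among 10655 genes with a mean of at least 5 CPM, the 30 highest in Female replicate 2 against the other 7 libraries held 3 of the 10 genes (Ddit4, Egln3 and Bnip3) and 3 of the 46 other targets at that level (Stc2, P4ha2 and Aldoc). Next to them stood genes of other kinds, such as H2-Ab1, an antigen-presenting molecule (16.3 CPM there, mean 10.6), and Foxh1, a transcription factor of Nodal signalling (29.4 CPM, mean 20.1). Siah2, a ubiquitin ligase of prolyl hydroxylases, followed Bnip3 over the 8 libraries (r = 0.854, a description), from 7.93 to 22.3 CPM. Such an r with Bnip3 was common: of 16376 genes, 8.51% reached 0.882 and 14.7% reached 0.825. The r of Siah2 was not computed without Male replicate 2. All genes of this paragraph were named after their values were seen.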
